A study of Mus musculus with 3 samples.

Results

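Cortical thymic epithelial cells (cTECs) were picked out of a single-cell RNA-seq lane by their raw counts of unique molecular identifiers (UMIs, each standing for 1 captured RNA molecule) of Psmb11 and Prss16. A cell was taken as a cTEC with at least 3 UMIs of Psmb11, at least 5 of Prss16, and at most 1 each of the lymphocyte genes Cd3e and Ptprc. Of 9349 cells that could be assigned to a culture type, 179 met this rule. They were compared with 2302 other epithelial cells, which had at least 1 UMI of Epcam and met the same Cd3e and Ptprc limits, and between the culture types. Psmb11, Prss16, Ccl25 and Tbata were the markers of the class. Because the first 2 chose the cells, their levels are given as a description only.

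The lane held mouse thymus cells of 2 pools at culture day 13, wild type (C57BL/6J) and with no treatment group. The ORFTOC pool came from reaggregates. These combined thymic epithelial cells (TECs) that had been grown as organoids in Matrigel with FGF7, embryonic thymus cells depleted of EpCAM+ cells, and fibroblasts of mouse embryos. The study's methods call the fibroblasts wild type and give no strain for them. Intact embryonic thymic lobes, kept in the same culture medium with FGF7, made up the FTOC pool. Per the methods, thiazovivin was added to that medium for the first 2 days. It was also added for the first 2 days of the earlier organoid culture, which only the TECs of the ORFTOC pool went through. Each pool mixed 2 cultures before an antibody with an oligonucleotide barcode (hashtag) was added, so that the cultures of a pool cannot be told apart. A pool is therefore 1 sample without replicates, no test between pools was possible, and the 95% intervals cover counting error only. The TECs of the reaggregates came from older embryos than their thymocytes and than the lobes of the FTOC pool.

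The thymic cortex is where immature thymocytes commit to the T-cell lineage and undergo positive selection. Its epithelial cells attract and instruct them through chemokines and Notch ligands. They cut the peptides used for selection with enzymes that are rare elsewhere, namely a proteasome that carries the subunit β5t (encoded by Psmb11) for MHC class I, and the serine protease TSSP (Prss16) with cathepsin L (Ctsl) for MHC class II. FOXN1 is the transcription factor on which TEC differentiation depends, and it is known to act directly on Psmb11 through sites built around the letters GACGC.

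Of the 179 cTECs, 143 carried the ORFTOC hashtag and 36 the FTOC hashtag. The ORFTOC pool thus supplied 79.9% of the cTECs (95% Clopper-Pearson interval 73.3 to 85.5), against 57.6% of the other Epcam+ cells (55.5 to 59.6). Within a pool, cTECs made up 9.73% of the epithelial cells of ORFTOCs (143 of 1469, 8.27 to 11.4) and 3.56% of those of FTOCs (36 of 1012, 2.50 to 4.89). These shares depend on where the UMI thresholds lie and on dissociation, and with 1 pool each the spread between cultures is unknown. With thresholds raised to 6 and 10 UMIs the shares were 7.08% and 1.58%. The hashtag limit bore mostly on FTOC cells: requiring 95% of hashtag UMIs in 1 row in place of 80% kept 138 of 143 ORFTOC and 22 of 36 FTOC cTECs.

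The cTECs of both pools were of like depth. The ORFTOC cTECs held 2483972 UMIs, with 2048 to 38547 per cell and a median of 17056, and the FTOC cTECs held 678441, with 9174 to 50142 per cell and a median of 16604. The other Epcam+ cells were shallower, with medians of 12178 and 11880. Mitochondrial genes took a median of 2.16% of the UMIs of ORFTOC cTECs and 2.07% of those of FTOC cTECs. Expression is given as CPM, a gene's UMIs per 1000000 UMIs of the group. The 15 thymocyte genes examined summed to 59.2 CPM in ORFTOC cTECs and 79.6 in FTOC cTECs, and a T-cell receptor contig was found in 2 cTECs of each pool. The limit on Cd3e and Ptprc had left out 20 cells past both marker thresholds, 15 of ORFTOC and 5 of FTOC, in which the thymocyte genes summed to 2058 and 1752 CPM. All 15 thymocyte genes had a UMI in the ORFTOC cTECs and 14 in the FTOC cTECs, and the highest was Tcf7 with 14.9 and 17.7 CPM. Macrophage genes (10) summed to 39.0 and 30.9 CPM in cTECs, with 2 and 3 of them at 0, Csf1r and Adgre1 among these. In the other Epcam+ cells they summed to 215 and 85.7 CPM. The part of such RNA in the values of cTECs was not tested.

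All 4 markers were higher in cTECs than in the other Epcam+ cells of both pools, but some FTOC cTECs had no UMI of Tbata or Ccl25. Psmb11 lies at chr14:54625310-54629556, Prss16 at chr13:22002176-22009741, Ccl25 at chr8:4325205-4360020 and Tbata at chr10:61171964-61188841 (GRCm38.p6, the assembly also called mm10). Psmb11 stood at 1234 CPM in ORFTOC cTECs and 634 in FTOC cTECs, and at 52.6 and 7.97 in the other Epcam+ cells. Single ORFTOC cTECs held 3 to 128 UMIs of Psmb11 with a median of 13, and single FTOC cTECs 3 to 90 with a median of 5. Prss16 stood at 4644 and 2646 CPM, with 161 and 119 in the other Epcam+ cells. Its median was 69 UMIs per ORFTOC cTEC and 29 per FTOC cTEC, so the FTOC cells lay closer to both thresholds. Cells just outside the Psmb11 threshold, with 2 UMIs, had Tbata at 5367 CPM in 14 ORFTOC cells, against 5528 in 16 cells just inside with 3 UMIs. In FTOCs it stood at 714 CPM in 7 cells outside and 832 in 7 cells inside. Ccl25 stood at 917 and 1348 CPM in the ORFTOC cells and at 348 and 21.0 in the FTOC cells. With 4 UMIs of Prss16, just outside, 5 ORFTOC cells and 1 FTOC cell held Tbata at 9622 and 0 CPM, and with 5 UMIs 4 cells and 1 cell held it at 6221 and 445. The comparison cells kept some Psmb11: in ORFTOCs 24, 9 and 10 of them had 3 to 9, 10 to 29 and 30 or more UMIs but fewer than 5 of Prss16.

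The sequences upstream of 3 of the marker genes are shown because the letters GACGC were searched in them on either strand. Matches are in capitals, and GCGTC is the same motif on the other strand. They are the 250 bases before the RefSeq start used for each gene, 5′ to 3′, all on the plus strand. For Ccl25 that start lies a few bases inside the gene range given above.
Psmb11 (chr14:54625060-54625309): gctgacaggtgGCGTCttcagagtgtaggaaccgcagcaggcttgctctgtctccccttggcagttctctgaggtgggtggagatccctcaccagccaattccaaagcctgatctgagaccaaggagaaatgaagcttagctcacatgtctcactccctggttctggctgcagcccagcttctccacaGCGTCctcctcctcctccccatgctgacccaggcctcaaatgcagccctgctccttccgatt
Ccl25 (chr8:4324960-4325209): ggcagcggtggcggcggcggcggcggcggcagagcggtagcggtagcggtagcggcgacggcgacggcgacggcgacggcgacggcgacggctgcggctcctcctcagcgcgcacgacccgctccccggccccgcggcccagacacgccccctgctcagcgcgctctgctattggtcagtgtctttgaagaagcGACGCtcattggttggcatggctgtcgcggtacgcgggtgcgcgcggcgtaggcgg
Tbata (chr10:61171714-61171963): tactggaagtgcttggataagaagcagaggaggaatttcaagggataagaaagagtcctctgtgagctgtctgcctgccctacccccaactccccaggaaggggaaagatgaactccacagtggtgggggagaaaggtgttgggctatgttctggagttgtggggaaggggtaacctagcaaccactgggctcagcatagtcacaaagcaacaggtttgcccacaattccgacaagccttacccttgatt
Psmb11 had the motif 239 and 62 bases before its start, Ccl25 had it 56 bases before and 13 bases after the start used here, and the Tbata window had none. A second Ccl25 window (chr8:4349338-4349637) had none either. Of the 14 genes on the cortical list used below, 11 had a window in the table (12 windows of 300 bases). The motif stood in 4 of these 12 windows (33.3%), also in those of Cxcl12 and Enpep, and in 27.2% of all 32851 windows. A match of 5 letters is a description of the sequence and not a binding site.

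Beside the 2 selecting genes, the cTECs of both pools had high levels of the genes that guide thymocytes and prepare their selecting peptides. On a list of 14 cortical genes, 10 were at least 2-fold higher in cTECs than in the other Epcam+ cells in both pools and none was lower, where 2.19% of 13260 measured genes were higher and 4.86% lower by the same measure. Psmb11 and Prss16, which chose the cells, are on this list and among the 10. The median log2 ratio over the list was 2.65 in ORFTOCs and 2.27 in FTOCs, and over all measured genes -0.12 and 0. This contrast is the one the rule used, so the counts describe the class and do not test it. Ccl25, the chemokine that draws CCR9-bearing progenitors, stood at 3481 CPM in ORFTOC cTECs and 237 in the other Epcam+ cells, and at 814 and 95.02 in FTOCs. The Notch ligand Dll4, which commits progenitors to the T-cell lineage, stood at 58.8 against 5.65 CPM in ORFTOCs and at 82.5 against 7.24 in FTOCs. Its log2 ratios of 3.38 and 3.51 were close to one another. Cxcl12, the chemokine that retains thymocytes in the cortex, was 2.31 higher on the log2 scale in ORFTOC cTECs and 1.52 higher in FTOC cTECs. Slc46a2, a solute carrier found in TECs, was 2.41 and 2.08 higher, and Ly75 (DEC-205, an endocytic receptor used as a cTEC surface marker) was 3.02 and 2.46 higher. The 4 genes of the list that did not reach 2-fold in both pools were Il7, Cd83, Ackr4 and Enpep. Enpep (Ly51, the other usual cTEC surface marker) was at 43.9 CPM in ORFTOC cTECs and 32.3 in the other Epcam+ cells, and at 28.0 and 21.7 in FTOCs.

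**Figure D1:**
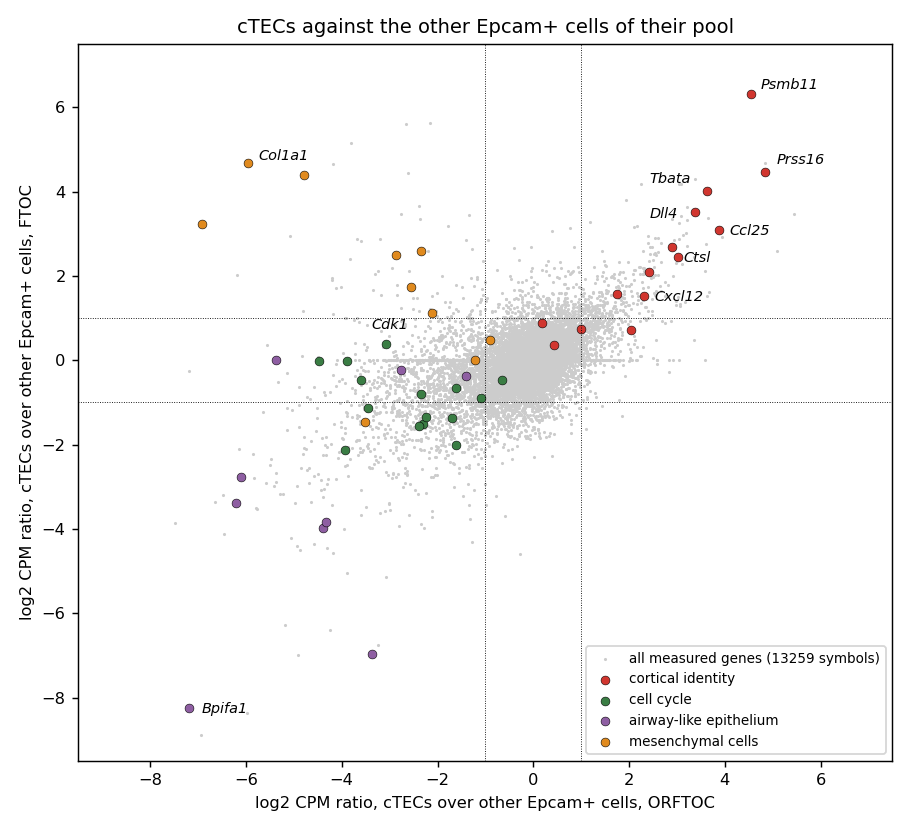
Each point is 1 gene. The horizontal axis gives the log2 ratio of CPM in cTECs over other Epcam+ cells in ORFTOCs and the vertical axis the same in FTOCs, coloured points are genes of 4 lists, and dotted lines mark 2-fold. Psmb11 and Prss16 at the upper right chose the cells, Tbata, Dll4 and Ccl25 lie beside them, Bpifa1 lies at the lower left, and the collagen gene Col1a1 lies high in FTOCs (4.67) and low in ORFTOCs (-5.96).

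The genes with at least 100 CPM in any group were also ranked by the smaller of the ratios in the 2 pools. After Psmb11, Prss16 and Tbata the next were Ppp1r27, Gm14207, Fgf14, Ccl25 and A630076J17Rik. Ppp1r27, a regulator of a protein phosphatase, stood at 64.8 CPM against 1.49 in ORFTOCs and at 122 against 10.98 in FTOCs. It was found in 33 of 143 and in 14 of 36 cTECs, fewer than 1 in 2 of the cells. Fgf14, a relative of the fibroblast growth factors that is not secreted, stood at 101 CPM against 10.9 and at 121 against 12.0. Gm14207 (116 against 12.6 and 137 against 10.98) and A630076J17Rik (631 against 74.2 and 373 against 20.4) are gene models without an established role.

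Foxn1 and Pax1 were the 2 of 10 TEC transcription factors that were at least 2-fold higher in the cTECs of both pools. Foxn1 stood at 180 CPM in ORFTOC cTECs and 162 in FTOC cTECs, and at 53.3 and 54.6 in the other Epcam+ cells. Pax1, a pharyngeal pouch factor, stood at 681 and 525 CPM against 243 and 210. Pax9, its close relative, showed no such difference, with 156 and 175 CPM in cTECs and 183 and 177 in the other Epcam+ cells. Trp63, which epithelial progenitors need, was at 183 and 203 CPM against 129 and 195. Of the 16 signals to lymphoid cells, 5 were higher in both pools. These were Dll4, Cxcl12 and Ccl25, the Wnt ligand Wnt4 (460 and 374 CPM against 170 and 173), and Flt3l, a cytokine for early progenitors (21.7 and 22.1 CPM against 8.27 and 8.95). Il7, the survival cytokine of immature T cells, was at 343 and 236 CPM against 172 and 140. Kitl, the ligand of Kit on progenitors, was 2.10 higher on the log2 scale in ORFTOC cTECs and 0.57 higher in FTOC cTECs.

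Proteolytic genes differed by enzyme. Among 10 proteasome genes, Psmb11, a selecting gene, and Psmb10 were at least 2-fold higher in both pools and Psme1 was lower. Psmb10 encodes β2i, which assembles with β5t in the thymoproteasome, and stood at 1254 CPM in ORFTOC cTECs and 765 in FTOC cTECs against 330 and 293. Psmb9, which encodes β1i, another subunit of that particle, was 1.46 and 0.80 higher on the log2 scale. Psmb8 encodes β5i, whose place in the particle β5t takes, and had log2 ratios of -0.37 and -1.05 (325 and 143 CPM against 422 and 296). The constitutive Psmb5 was at 446 and 417 CPM against 290 and 280. Psme1, a subunit of the PA28 activator, was at 120 and 84.0 CPM against 334 and 229.

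Among 12 lysosomal genes, Prss16, also a selecting gene, and Ctsl were the 2 that were higher in both pools, and 5 were lower. Cathepsin L RNA took 24783 CPM in ORFTOC cTECs and 10700 in FTOC cTECs, and 3318 and 1670 in the other Epcam+ cells. The 5 lower genes were Ctsd, Ctss, Ctsh, Ctsz and Ctsc, where 4.86% of all measured genes were lower by the same measure. Only Ctsc stayed past 2-fold under every alternative. By the smaller of the pools' log2 ratios, Ctsd rose to -0.805, Ctss to -0.639, Ctsh to -0.944 and Ctsz to -0.885. Ctss encodes cathepsin S, the protease that trims the invariant chain in antigen-presenting cells other than cTECs. It stood at 14.1 and 8.84 CPM in cTECs against 32.6 and 31.8. Ctsh stood at 18.1 and 23.6 CPM against 120 and 93.2. Lamp2, a lysosomal membrane protein, was higher by 1.30 in ORFTOC cTECs and by 0.78 in FTOC cTECs on the log2 scale.

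None of the 11 MHC class I pathway genes and none of the 10 class II pathway genes reached 2-fold in the same direction in both pools. H2-K1, a class I heavy chain, stood at 3763 and 2781 CPM in cTECs against 4407 and 4057. The class II pathway differed between the pools in its relation to the other epithelial cells, with a median log2 ratio of 0.74 in ORFTOCs and -0.01 in FTOCs. The α chain H2-Aa stood at 4303 against 2624 CPM in ORFTOCs and at 2799 against 2965 in FTOCs. Ciita, the transactivator of class II genes, stood at 146 against 58.5 CPM in ORFTOCs and at 54.5 against 53.8 in FTOCs. H2-Oa, a chain of the DM inhibitor DO, stood at 215 against 63.1 CPM and at 79.6 against 71.4. Autophagy genes, 11 in all, included none past 2-fold in both pools, and the autophagy receptor Sqstm1 had log2 ratios of 1.30 and 0.94. Among the 16 interferon response genes none passed in both pools either.

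Many genes of the medulla were lower in cTECs. Of 14 measured medullary genes, 6 were at least 2-fold lower in both pools and none was higher. They were Aire, which drives expression of tissue antigens, Tnfrsf11b, Krt14, Cldn3, Cldn4 and Cd52. Over all measured genes 4.86% were lower and 2.19% higher by this measure, which also applies to the other lists of this paragraph. Aire and Tnfrsf11b did not stay past 2-fold under every alternative. By the smaller of the pools' log2 ratios they rose to -0.466 and -0.623. Cldn4 had 13 UMIs in 1 ORFTOC cTEC and 6 in 3 FTOC cTECs, 5.23 and 8.84 CPM against 285 and 103 in the other Epcam+ cells. Aire stood at 6.44 and 14.7 CPM against 32.5 and 53.6. Krt5, a keratin of medullary and immature TECs, was not among them, with 1636 and 1191 CPM in cTECs against 1890 and 914. Of 8 keratins, the cortical pair Krt8 and Krt18 were higher (5402 and 4317 CPM against 2098 and 1404 for Krt8) and Krt19, Krt7, Krt14 and Krt15 lower. Of 12 junction genes, 11 were measured. Cldn3, Cldn4 and Cldn7 were lower in both pools, and Epcam itself was at 624 and 641 CPM in cTECs against 1206 and 1233. The desmosomal gene Dsp stood at 627 and 641 CPM against 322 and 286. Of 15 growth factor receptors, Erbb2, Erbb3 and Met were lower in both pools and none was higher. None of these 3 stayed past 2-fold under every alternative. By the smaller of the pools' log2 ratios, Erbb2 rose to -0.695, Erbb3 to 0 and Met to -0.203. Of 12 genes that respond to dissociation, Atf3 and Dusp1 were lower and none was higher in both pools. Of 14 measured thymocyte genes none was past 2-fold in both pools, and of 8 macrophage genes Lyz2 was lower, as was Ctss, which the lysosomal list also holds. Krt19, Atf3, Lyz2 and Ctss also came under 2-fold under some alternative, at log2 ratios of -0.271, -0.85, -0.066 and -0.639.

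The genes furthest below the other epithelial cells were led by Bpifa1, Pth and Chga, which are known from airway, parathyroid and neuroendocrine cells. Bpifa1, a secreted airway protein, stood at 133 and 10.3 CPM in cTECs against 19535 and 3135. No UMI of Pth, the parathyroid hormone gene, was found in any cTEC, against 149 and 2081 CPM, which puts its log2 ratio at -6.95 or below in ORFTOCs and at -8.88 or below in FTOCs. The neuroendocrine gene Chga had 1 UMI in the 179 cTECs against 75.7 and 1471 CPM. Gp2, Lcn2, Spink8, Mt3 and Serpinb11 followed, and Gp2, Lcn2, Spink8 and Mt3 had no UMI in FTOC cTECs. Not all of these ratios stayed past 2-fold under every alternative. The smaller of the ratios in the 2 pools was 0 for Pth and -0.22 for Chga when cells with any Cd3e or Ptprc UMI were left out, and 0 and -0.42 with 95% of hashtag UMIs required in 1 row. Looser thresholds gave 0 for Mt3, -0.06 for Gp2 and -0.66 for Serpinb11. Bpifa1 and Lcn2 stayed at -5.32 and -4.40 or below. Of the 9 measured airway genes 6 were lower in both pools, and their summed level was 195 and 16.2 CPM in cTECs against 20434 and 4106.

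Of 15 cell cycle genes, 7 were at least 2-fold lower in the cTECs of both pools, and none was higher. The median log2 ratio over the list was -2.34 in ORFTOCs and -0.89 in FTOCs. Looser thresholds left 2 of the 7, Ccna2 and Rrm2, past 2-fold, with Mki67 at -0.22 and Birc5 at -0.10 by the smaller ratio. At least 5 UMIs over 8 genes of mitosis and late cycle, Mki67 and Cdk1 among them, were found in 1 of 143 ORFTOC cTECs (0.699%, 0.0177 to 3.83) and in 2 of 36 FTOC cTECs (5.56%, 0.680 to 18.7), against 6.33% and 10.2% of the other Epcam+ cells. In FTOCs the counting interval holds the share of the other cells. Mki67 stood at 7.25 and 22.1 CPM in cTECs against 35.6 and 63.0. A single FTOC cTEC held 187 of the 217 mitosis UMIs of its group. That cell had 50142 UMIs, the most of any cTEC. It held 96.7% of the FTOC UMIs of Ube2c and 90.2% of those of Cdk1.

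**Figure D2:**
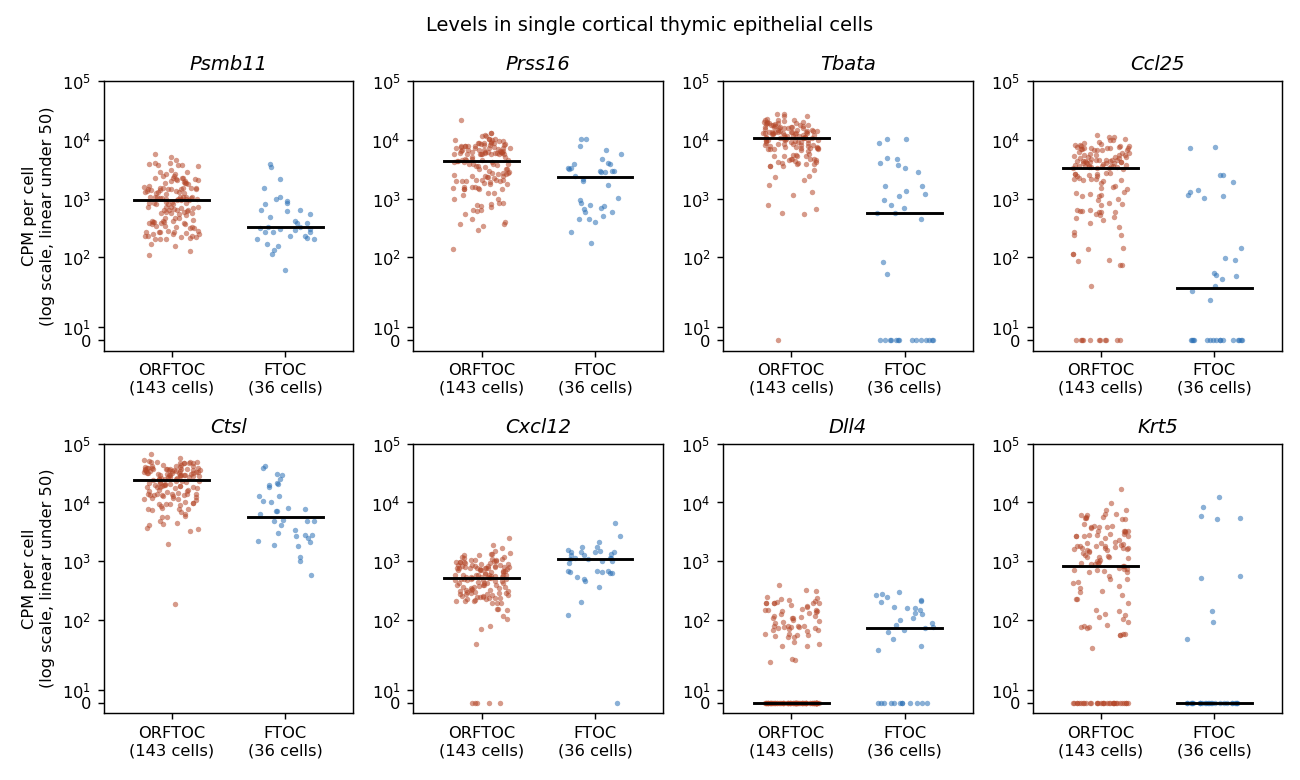
Each point is 1 cTEC and gives the CPM of 1 gene in that cell, on an axis that is logarithmic above 50 CPM and linear below it, with the pool's median as a black line. ORFTOC cells cluster near a median of 10583 CPM for Tbata, whereas FTOC cells range from 0 to 10476 CPM with 14 of 36 at 0, and Cxcl12 has the higher median in FTOC cells (1094 against 518).

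Between the pools, Tbata differed most among the cortical genes, and the order was not the same for all of them. On the cortical list 5 of 14 genes were at least 2-fold higher in ORFTOC cTECs and 1 was lower. Of 9693 genes measured between the pools, 7.43% were higher in ORFTOC cTECs by this measure and 5.24% lower. The higher ones were Tbata, Ccl25, Cd83, Ctsl and Ly75, and the lower one was Ackr4. Psmb11 (1.95-fold) and Prss16 (1.76-fold) themselves were higher in ORFTOC cTECs, as was the cortical list in sum (47403 against 18933 CPM). This sum includes the 2 selecting genes, and most of it came from Ctsl and Tbata in both pools. It does not describe the list gene by gene.

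Tbata, a gene expressed in thymic epithelium and testis that has been described as a brake on TEC proliferation, reached 11059 CPM in ORFTOC cTECs and 1822 in FTOC cTECs. In the other Epcam+ cells Tbata stood at 892 CPM in ORFTOCs and 112 in FTOCs, so the difference was not confined to cTECs. Single ORFTOC cTECs ranged from 0 to 27600 CPM with a median of 10583, and single FTOC cTECs from 0 to 10476 with a median of 573. The ranges overlapped, but 141 of 143 ORFTOC cells had at least 10 UMIs and 18 of 36 FTOC cells did. The log2 ratio was 2.60 (2.52 to 2.69), a 6.07-fold difference, and lay between 2.10 and 2.98 under the alternatives tried. Ccl25 was 4.28-fold higher in ORFTOC cTECs, at a log2 ratio of 2.10 (1.97 to 2.22). It was found in 132 of 143 ORFTOC and 20 of 36 FTOC cTECs, with medians of 3370 and 39.7 CPM per cell. The FTOC cell with most Ccl25 held 32.2% of its UMIs there, and without the leading cell of each pool the log2 ratio was 2.61. Ctsl was 2.32-fold higher, with cell medians of 24242 and 5745 CPM, and was found in every cTEC of both pools. Ly75 was 2.11-fold higher, 360 against 171 CPM. Neither stayed past 2-fold under every alternative. The lowest log2 ratio was 0.82 for Ctsl, with 95% of hashtag UMIs required in 1 row, and 0.43 for Ly75, with thresholds per 10000 UMIs. Cd83, a surface protein that keeps MHC class II in place, had few UMIs, in 33 ORFTOC and 4 FTOC cTECs (33.8 against 8.84 CPM), and its log2 ratio of 1.94 had an interval of 0.75 to 3.42.

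Other cortical genes were closer or lower in ORFTOC cTECs. Foxn1 was at 180 and 162 CPM with a log2 ratio of 0.15 (-0.15 to 0.46). Slc46a2 was at 624 and 592 CPM with a ratio of 0.07 (-0.08 to 0.24). For both, a 2-fold difference in either direction lay outside the counting interval. Cxcl12 was higher in FTOC cTECs, with a median of 1094 CPM per cell against 518, and its log2 ratio was -0.85 (-0.98 to -0.71). The other Epcam+ cells differed in the same direction, with Cxcl12 found in 60.5% of those of FTOCs and 33.5% of those of ORFTOCs. Dll4 was found in 24 of 36 FTOC and 64 of 143 ORFTOC cTECs, with a ratio of -0.49 (-0.94 to -0.02), which was -0.03 with 95% of hashtag UMIs required in 1 row. Ackr4, a scavenger receptor for CCL25, CCL19 and CCL21, was at 53.1 CPM in FTOC cTECs and 11.3 in ORFTOC cTECs, a log2 ratio of -2.23 (-3.002 to -1.48). Among the other Epcam+ cells, 16.5% of those of FTOCs and 7.92% of those of ORFTOCs had Ackr4. Fgfr2, whose IIIb form in epithelium binds the FGF7 of the culture medium, was at 181 and 80.9 CPM, with a ratio of -1.16 (-1.495 to -0.83). It was found in 33 of 36 FTOC cTECs and in 93 of 143 ORFTOC cTECs.

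**Figure D3:**
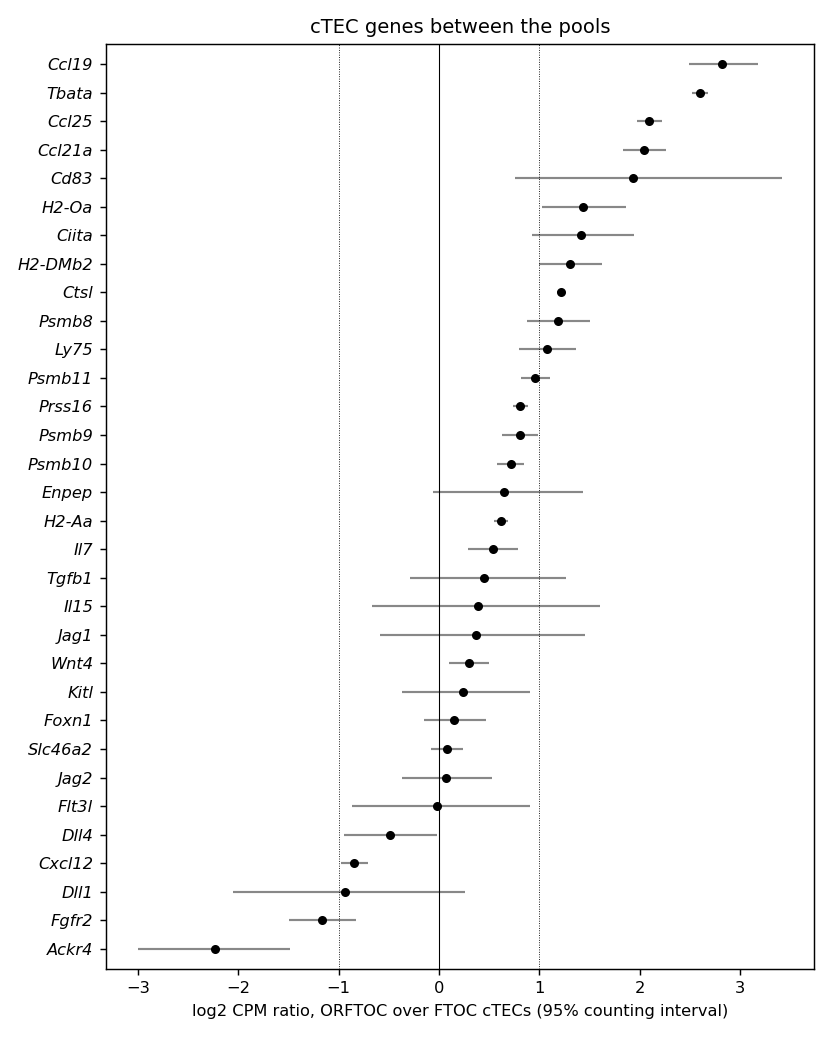
Points give the log2 ratio of CPM in ORFTOC over FTOC cTECs for the cortical and lymphoid support genes with at least 20 UMIs and for 8 genes of peptide handling and FGF signalling. Bars are 95% counting intervals and dotted lines mark 2-fold. Ccl19, Tbata, Ccl25 and Ccl21a lie furthest to the right, Foxn1 and Slc46a2 near 0, and Cxcl12, Fgfr2 and Ackr4 to the left.

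Chemokines of the medulla were part of the difference. Ccl21a was found in 105 of 143 ORFTOC cTECs and in 7 of 36 FTOC cTECs, at 1172 against 284 CPM. Ccl19, another ligand of CCR7, was found in 103 and 11 of them, at 772 against 109 CPM, and 66.2% of its FTOC UMIs came from 1 cell. Both genes have near-identical copies in the mouse genome, so that their reads may be split between loci. In the other Epcam+ cells Ccl21a was at 960 and 703 CPM and Ccl19 at 1182 and 431, in a shared lane, and the part of free RNA in the values of cTECs was not tested. With 5% of the RNA of near-empty barcodes subtracted, the direction was the same for both. Krt5 was found in 110 of 143 ORFTOC and 10 of 36 FTOC cTECs, although its level differed less (1636 against 1191 CPM), since 1 FTOC cell held 51.9% of its UMIs there. Without the leading cell of each pool its log2 ratio was 1.45 in place of 0.46. With the higher UMI thresholds it was 2.15, and with 95% of hashtag UMIs in 1 row -0.04. Both airway genes with enough UMIs, Bpifa1 and Reg3g, were also higher in ORFTOC cTECs. Bpifa1 was found in 45 ORFTOC and 7 FTOC cTECs at 133 and 10.3 CPM, where the other Epcam+ cells held 19535 and 3135.

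The shares of cells with a UMI were taken again with each cell thinned to 5000 UMIs, which left out 3 shallower ORFTOC cTECs and no FTOC cTEC. Tbata was then found in 99.3% of ORFTOC and 55.6% of FTOC cTECs, against 25.4% and 10.1% of the other Epcam+ cells. Ccl25 was found in 85.7% and 36.1%, against 12.4% and 7.70%. Krt5 was found in 72.9% and 22.2% of cTECs, with 64.9% and 39.6% of the other Epcam+ cells, and Ccl21a in 70.0% and 16.7%, with 51.7% and 40.1%. Dll4 was found in 17.9% and 36.1% of cTECs, against 1.74% and 2.83%. Medullary cells among the other Epcam+ cells express Krt5 and Ccl21a themselves, so their shares do not give the level of free RNA.

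Several genes of antigen presentation were higher in ORFTOC cTECs. Over all 9693 genes measured between the pools, 7.43% were at least 2-fold higher in ORFTOC cTECs and 5.24% lower. Of 9 measured MHC class II pathway genes, 3 were at least 2-fold higher and none was lower. They were H2-Oa with a log2 ratio of 1.43 (1.03 to 1.86), Ciita with 1.42 (0.93 to 1.95) and H2-DMb2, a chain of the peptide editor DM, with 1.30 (1.00 to 1.62). Ciita was found in 119 of 143 ORFTOC and 18 of 36 FTOC cTECs. The class II chains H2-Aa, H2-Ab1 and H2-Eb1 were higher by 0.62, 0.50 and 0.40. Of the class I pathway genes, 1 of 11 passed, the peptide transporter Tap2 (255 against 127 CPM), which is near the share over all genes. Psmb8 was 1.19 higher (0.88 to 1.505), Psmb9 0.81, Psmb10 0.71 and Psmb5 0.10. With the higher UMI thresholds Psmb8 was no longer past 2-fold and below Psmb9 (0.48 against 0.58). Among the lysosomal genes Ctsl and Ctsc were higher and Lgmn lower (33.8 against 92.9 CPM). Ctsc was found in 26 ORFTOC and 3 FTOC cTECs, and its log2 ratio of 1.26 was 0.51 with the higher UMI thresholds. The autophagy genes Sqstm1 (914 against 439 CPM) and Gabarapl1 (51.1 against 20.6) were the 2 of 11 that were higher. Under the alternatives tried, the lowest log2 ratios were 0.73 for Tap2, 0.93 for Sqstm1, 0.95 for Gabarapl1 and 0.99 for H2-Oa. These lie under 2-fold. Of 12 genes that respond to dissociation, Hspa1b was at least 2-fold higher and Hspa1a lower in ORFTOC cTECs, near the shares over all genes. Their log2 ratios of 1.03 and -1.01 came to 0.735 and -0.58 under some alternative, which is under 2-fold. Interferon response genes gave 1 of 16, also near the share over all genes. It was Cxcl9, which had 1 UMI in FTOC cTECs.

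Among genes with at least 100 CPM in either pool's cTECs, those with the largest ratios after Fcgbp and Bpifa1 were Lpin1, Csrp2, Gm8113, Zfp330, Aldh3b2 and Stc2. For Lpin1, a phosphatidate phosphatase, the level was 185 CPM in ORFTOC and 17.7 in FTOC cTECs, and it was found in 121 of 143 and 8 of 36 cells. Csrp2, a LIM domain protein, stood at 387 and 45.7 CPM, and the zinc finger gene Zfp330 at 507 and 63.4. The other Epcam+ cells differed in the same direction. There Lpin1 stood at 45.8 CPM in ORFTOCs and 16.9 in FTOCs, Csrp2 at 110 and 26.9, and Zfp330 at 151 and 49.6. Stc2, a secreted glycoprotein, stood at 147 and 20.6 CPM. Stc2 and Aldh3b2 were also above the other ORFTOC epithelial cells, by 3.66 and 3.63 on the log2 scale, whereas Fcgbp, a mucus protein, was 0.40 above them. In the inflammatory and TGF-β response list 5 of 8 measured genes were at least 2-fold higher in ORFTOC cTECs, where 7.43% of all measured genes were. Ccl11 and Cxcl5 were among them, and under the alternatives their lowest log2 ratios were 0.799 and 0, under 2-fold. Pmepa1, a target of TGF-β signalling, was found in 92 of 143 and 5 of 36 cells (117 against 25.1 CPM). Lcn2, an acute-phase gene, had 235 UMIs in 28 ORFTOC cTECs and none in FTOC cTECs. A single ORFTOC cTEC held 29.4% of these UMIs. In the other Epcam+ cells Lcn2 stood at 2864 CPM in ORFTOCs and 564 in FTOCs, and the part of free RNA was not tested.

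The genes with the smallest ratios had nearly all their UMIs in single FTOC cells. Col3a1, Col1a1, Col6a3, Igfbp6, Col15a1, Col6a2 and H19 are mesenchymal genes, and 1 FTOC cell held at least 98.1% of the FTOC UMIs of each. It had 652 UMIs over Col1a1, Col1a2 and Col3a1, 99.5% of the FTOC total, and no other cTEC of either pool had 10. The same cell had 32451 UMIs in all, 5 of Psmb11, 13 of Prss16, 31 of Tbata, 99 of Krt18 and none of Epcam. All 7 measured mesenchymal genes were at least 2-fold lower in ORFTOC cTECs with this cell included, where 5.24% of all measured genes were lower. The other 35 FTOC cTECs together held at most 2 UMIs of each of Col1a1, Col1a2 and Col3a1. Sparc was less bound to that cell, which held 60.2% of its FTOC UMIs, and without it the log2 ratio of Sparc went from -1.44 to -0.18. Cryba2, a crystallin gene, had 99.6% of its FTOC UMIs in another cell, which also held the most Ccl25. The ratios of Tbata (2.57), Ccl25 (2.03) and Cxcl12 (-0.89) changed little without the collagen-bearing cell. Of 10 measured cell cycle genes, 7 were lower in ORFTOC cTECs, against the same share over all genes. Among them were Cdk1, Ube2c and Mki67, which were led by the cell with 187 mitosis UMIs. Birc5 and Top2a, also among the 7 and led by that cell, changed sign under some alternatives, reaching log2 ratios of 0.303 and 0.39. Without each gene's leading cell the log2 ratio of Cdk1 went from -4.38 to -2.19, that of Ube2c from -5.22 to -1.29 and that of Mki67 from -1.61 to -1.19. With the higher UMI thresholds, which left that cell out, Cdk1 was at -1.35, Ube2c at -0.18 and Mki67 at -0.45.

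FTOC cTECs also differed among themselves. No Tbata UMI was found in 14 of them, 4 had 1 to 9, and 18 had 10 or more. The 14 cells without Tbata had no Krt5 UMI and no Ccl21a UMI, whereas 9 and 6 of the 18 cells with at least 10 Tbata UMIs had Krt5 and Ccl21a. Their Cxcl12 stood at 1390 CPM against 698 in the 18, and their Dll4 at 134 against 39.0. Ccl25 stood at 150 against 1343 CPM, Ctsl at 4246 against 15545, and Psmb8 at 91.8 against 182. Foxn1 (171 against 141), Ly75 (163 against 169) and Slc46a2 (639 against 554) were close. Psmb11 and Prss16, on which the cells were selected, were also lower in the 14, at 351 against 802 and 1315 against 3446 CPM, and their median depth was 15244 UMIs against 18843. Of the 143 ORFTOC cTECs, 1 had no Tbata UMI and 1 had 1 to 9. The first also lacked Ccl25, Krt5 and Dll4 UMIs and held Krt18 at 8222 CPM. The 18 FTOC cells with at least 10 Tbata UMIs still stood below the 141 such ORFTOC cells in Tbata (3181 against 11169 CPM) and Ccl25 (1343 against 3516). These groups of cells were formed from the measured Tbata counts, so their differences are a description of 36 cells.

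**Figure D4:**
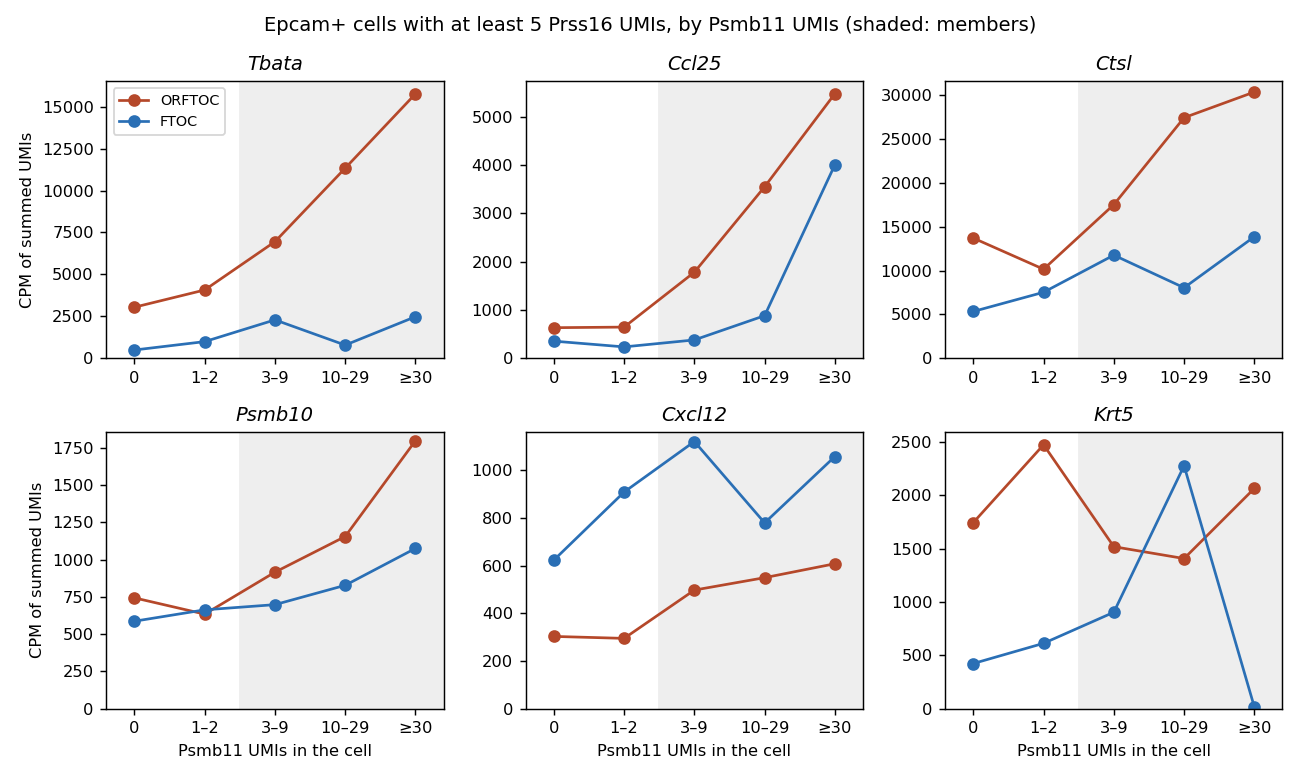
Epcam+ cells with at least 5 Prss16 UMIs are grouped on the horizontal axis by their Psmb11 UMIs, with the summed CPM of 1 gene on each vertical axis and the cTECs shaded. Lines join 50, 42, 57, 51 and 34 ORFTOC cells and 41, 17, 23, 9 and 3 FTOC cells. Tbata, Ccl25, Ctsl and Psmb10 are highest in the ORFTOC cells with the most Psmb11, and Cxcl12 is higher in FTOC cells in every group.

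Tbata and Ccl25 were higher in ORFTOC cells with more Psmb11. In ORFTOCs, cells with at least 5 Prss16 UMIs held Tbata at 3040 CPM with no Psmb11 UMI, at 6950 with 3 to 9 and at 15772 with 30 or more. Ccl25 went from 631 to 1781 and 5480 CPM over the same groups, Ly75 from 116 to 244 and 492, and Dll4 from 11.2 to 17.1 and 104. Over all 5 groups the order was not kept by each gene: with 1 to 2 Psmb11 UMIs Ly75 was at 100 CPM and Dll4 at 18.8, and Foxn1 was at 174, 162 and 169 in the middle groups. Median depth went from 15039 UMIs to 14555 and 20741, so the cells of the last group were also the deepest. In the group with 3 to 9 Psmb11 UMIs the depths were alike (14555 in 57 ORFTOC and 14905 in 23 FTOC cells). The pools differed there, with Tbata at 6950 against 2285 CPM, Ccl25 at 1781 against 378, Ctsl at 17523 against 11759 and Cxcl12 at 498 against 1120. The group was not matched on the selecting genes, with Psmb11 at 351 against 260 CPM and Prss16 at 3028 against 2200. The FTOC groups above it held 9 and 3 cells and give no order. ORFTOC cells with 30 or more Psmb11 UMIs but fewer than 5 of Prss16, 10 cells that the rule left out, had Ccl25 at 5074 CPM, Tbata at 10700 and Ctsl at 28585. They lay near the cTECs in these genes and differed in Prss16.

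Sex-linked transcripts differed between the pools. All 36 FTOC cTECs had UMIs of Xist, which is transcribed from the inactive X chromosome, and none had a UMI of the 4 Y-linked genes examined. Of the ORFTOC cTECs, 50 had Xist alone, 66 had Y-linked UMIs alone, 9 had both and 18 had neither. Tbata stood at 11116 CPM in the 50 and 11253 in the 66, and Ccl25 at 3237 and 3620. The 50 ORFTOC cells with Xist alone gave log2 ratios over FTOC cTECs of 2.61 for Tbata, 1.99 for Ccl25, 1.22 for Ctsl and -0.999 for Cxcl12. The pools also differed in the donor stage of their TECs, in prior organoid culture, in reaggregation and in added fibroblasts, and these differences cannot be told apart.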

How the data were processed

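Per the labels, gene expression, T-cell receptor and hashtag libraries were made from 1 lane (5′ chemistry) and mapped to mm10. The authors deposited unfiltered UMI counts per gene and barcode, with the hashtag counts as the last rows, and lists of receptor contigs with counts behind each. The submitters' notes and the study's methods name Cell Ranger 6.1.2 and Seurat 4.2.0, whereas the matrix header names Cell Ranger 4. The effect of the version could not be examined.

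Barcodes were kept with at least 600 genes and 0.4 to 10% mitochondrial UMIs. A pool was assigned with at least 10 hashtag UMIs, 80% of them in 1 row (HTO_1 for FTOC, HTO_2 for ORFTOC). Of 705161 barcodes, 10910 had enough genes, 10245 passed the mitochondrial limits and 9349 were assigned, 5237 to ORFTOC and 4112 to FTOC. Among the 896 unassigned, 7 met the cTEC rule. Doublets between pools were limited by the hashtag share and those with blood cells by the Cd3e and Ptprc limit. No other doublet caller was run. The rule uses raw UMIs and so favours deep cells.

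Summed UMIs of each cell group were scaled to the group's total (CPM). Ratios of CPM took counts below 3 as 3 and were limited to genes with at least 20 UMIs over the groups compared. The pools were single samples, so at least 2-fold is a size and not a test result. For cTECs over other Epcam+ cells it had to be reached in both pools. Intervals are 95% (Clopper-Pearson for shares, exact conditional binomial for ratios). For 38 symbols with 2 identifiers the one with more UMIs was used. Named genes came from 21 gene lists and from the 8 largest and 8 smallest ratios of each comparison among genes above 100 CPM. Some list members are counted but not reported here by name, and they were left out of the alternatives per gene. Members and lists were chosen with earlier results of these data known. To compare how many cells held a UMI, each was thinned to 5000 UMIs. Promoter windows and gene coordinates came from RefSeq tables (GRCm38.p6). The ratio step was tested on simulated data. Python 3.11.15, numpy 2.4.6, scipy 1.17.1, pandas 2.3.3, matplotlib 3.10.9, R 4.3.3 and Seurat 5.3.0 (HTODemux, as an alternative) were used.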

Additional observations from a re-analysis of the deposited data

Results flagged for a closer look

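For 14 named genes the level in cTECs lay at least 2-fold on opposite sides of the other Epcam+ cells in the 2 pools, and the difference was not tested. Each was lower in ORFTOC cTECs and higher in FTOC cTECs. The FTOC log2 ratios were 5.15 for Col15a1, 4.67 for Col1a1, 4.65 for Col6a3, 4.399 for Col1a2, 3.46 for Igfbp6, 3.44 for Cryba2, 3.24 for Col3a1, 2.59 for Pdgfra, 2.49 for Lum, 2.01 for Col6a2, 1.90 for H19, 1.74 for Dcn, 1.17 for Ccl11 and 1.12 for Fbn1. For 13 of the 14 genes the same FTOC cell led. It held every FTOC UMI of Col3a1, Col6a3, Col15a1, Col6a2, H19, Lum, Dcn and Pdgfra, 99.6% of those of Col1a1, 98.8% of Col1a2, 98.1% of Igfbp6, 92.0% of Ccl11 and 88.0% of Fbn1. Another cell held 99.6% of those of Cryba2.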

How the results depend on the processing

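The ORFTOC pool kept the larger share of cTECs under every alternative, but several values moved. With 95% of hashtag UMIs required in 1 row, ORFTOCs supplied 86.2% of cTECs, and cTECs were 4.90% of FTOC epithelial cells. Looser thresholds put the cTEC share of ORFTOC epithelial cells at 11.7%. Stricter ones put the pool share at 86.7% and the epithelial shares at 7.08% and 1.58%, and thresholds per 10000 UMIs put the latter at 8.08% and 2.18%. Comparison cells with at least 5 Epcam UMIs gave 11.6% for ORFTOCs. Requiring 50 UMIs left 442 genes at least 2-fold higher and 216 lower in ORFTOC cTECs, in place of 720 and 508. Without a UMI filter 1643 were lower, more than the 720 higher, and 467 in place of 290 were higher in cTECs of both pools. Added after the data had been seen, leaving out each gene's leading cell in each pool gave 1096 higher and 307 lower. The group totals were kept, 1 of 36 cells is a larger share than 1 of 143, and it moved the median log2 ratio by 0.17.

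Ratios of ORFTOC over FTOC cTECs changed sign under at least 1 alternative for 8 of the named genes past 2-fold, given here, and for 56 of those under 2-fold, out of 193 named genes in all. Looser thresholds gave 0.17 for Cd52, -0.52 for Cldn7 and -3.52 for Gp2. Stricter ones gave 0.0394 for Cd52, 0.17 for Top2a and 1.07 for Dcn, and thresholds per 10000 UMIs gave 0.26 for Cd52, 0.39 for Top2a and 1.32 for Dcn. Without cells of over 2 times the median depth, Top2a was at 0.24 and Birc5 at 0.30. Of the added alternatives, leaving out the collagen-bearing cell gave 2.14 for Dcn and 0.17 for Fbn1, ORFTOC cells with Xist alone gave -0.28 for Cldn7 and 0.34 for Xist, and leaving out leading cells gave 0.13 for Dcn and 0.0021 for Fbn1. The cause was not tested except where the alternative names the cells. Of 64 named genes past 2-fold between the pools, 23 stayed past it under every alternative, among them Tbata and Ccl25, and of 69 past it against the other Epcam+ cells, 44 did. No paired analysis was possible because each pool was 1 sample.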
